A study of Mus musculus with 9 samples.

Results

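The desmosome genes are 10 genes for the proteins of the desmosome and of the cornified cell junctions that carry the same plakins, taken by name from a table of 24421 genes: Dsg2, Dsc2, Jup, Pkp1, Pkp2, Pkp3, Dsp, Ppl, Evpl and Perp. All 10 were among the 12575 genes with enough reads to be tested. They were measured by RNA-seq in 4T1 cells, a mouse mammary carcinoma cell line from a BALB/c mouse that lacks estrogen receptor, progesterone receptor and HER2. The 3 groups had 3 libraries each, all from cells cultured for 5 days: 3D without added palmitate (spheroids on soft agar, given the carrier only), 3D with 75 µM palmitate bound to albumin, and 2D monolayers with 75 µM palmitate. Palmitate is a saturated fatty acid, whose use by breast cancer cells that grow in the lung was the subject of the study, and the medium of all groups also held serum. There was no 2D group without palmitate, so that palmitate was compared with none in 3D only and 3D was compared with 2D only with palmitate added. Both comparisons use the 3D libraries with palmitate.

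A desmosome is a spot-like junction that ties the intermediate filaments of neighbouring epithelial cells together. Outside the cell, desmogleins and desmocollins, which are members of the cadherin family, bind those of the next cell. Inside, their tails hold the armadillo proteins plakoglobin and plakophilin, and these hold desmoplakin, which grips the keratin filaments. Carcinoma cells that lose desmosomes often separate more easily, and stratified epithelia such as the epidermis use a different set of desmogleins, desmocollins and plakophilins from simple epithelia such as the mammary duct.

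Total counts per library ranged from 6595514, in replicate 3 of 3D with palmitate, to 31177756, in replicate 2 of 2D. Every desmosome gene had at least 144 counts in every library and at most 10332. Replicates of 3D with palmitate stood further apart than those of the other groups: the chi-square value per gene between 2 replicates lay between 16.4 and 19.7 there and between 3.90 and 9.30 elsewhere. The results on palmitate are therefore also given without single libraries. Levels are given as CPM, the read counts scaled by the TMM method to a common library size. The cells carried epithelial markers in every group, with a summed level of 4156 to 4496 CPM in 2D, 5210 to 5272 in 3D without palmitate and 5115 to 5408 in 3D with palmitate. Of the 8 markers on that list, 5 were called higher and 2 lower in 3D than in 2D with palmitate, where 68.3% of all genes tested were called. With palmitate in 3D 0 of them were called, where 2.19% of all genes were. The 8 fibroblast markers summed to 33.2 to 34.6 CPM in 2D and to 91.8 to 111 CPM in the 3D groups, nearly all of it Pdgfra, with Col3a1 and Lum at 0 in every library. The 7 immune markers summed to 24.6 to 28.0 CPM in 2D and to 7.17 to 11.6 CPM in the 3D groups, nearly all of it Cd68, with Cd3e at 0 in every library. The 4 endothelial markers stayed under 0.58 CPM in sum, and the 5 myoepithelial markers, mostly Krt14, summed to 136 to 142 CPM in 2D, 176 to 199 in 3D without and 113 to 146 in 3D with palmitate. The part of these markers in the results on desmosome genes was not tested. In such bulk samples, a smaller number of cells of one kind and less RNA per cell cannot be told apart. The labels do not say whether replicates were separate cultures, so that the p-values measure the spread between these libraries only.

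The sequences before the starts of Dsp and Jup are shown, since these were the 2 desmosome genes with an entry in the promoter table used. Their proteins, desmoplakin and plakoglobin, stand between the desmosomal cadherins and the keratin filaments. Each run is the 250 bases upstream of the RefSeq start on the gene's own strand, 5′ to 3′, from GRCm38.p6. Capitals mark the GC box GGGCGG, the letters bound by Sp1-type factors, or its reverse complement CCGCCC. The Dsp run is chr13:38151044-38151293 on the plus strand and the Jup run is chr11:100397791-100398040 on the minus strand.
Dsp: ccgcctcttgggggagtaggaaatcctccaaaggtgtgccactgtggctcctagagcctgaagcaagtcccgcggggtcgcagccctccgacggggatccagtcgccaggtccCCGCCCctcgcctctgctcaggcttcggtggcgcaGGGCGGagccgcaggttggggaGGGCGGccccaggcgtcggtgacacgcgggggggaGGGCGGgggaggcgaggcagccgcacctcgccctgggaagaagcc
Jup: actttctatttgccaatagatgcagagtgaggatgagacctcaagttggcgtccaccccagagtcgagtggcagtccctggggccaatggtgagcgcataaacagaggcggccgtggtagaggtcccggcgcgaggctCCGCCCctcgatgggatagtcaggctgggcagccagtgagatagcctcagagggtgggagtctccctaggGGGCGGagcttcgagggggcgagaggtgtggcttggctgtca
The Dsp run had a GC content of 72.4% and held 4 GC boxes, which began 137, 102, 80 and 45 bases before the start. The Jup run had a GC content of 62.0% and held 2, which began 112 and 42 bases before the start. Of 32851 mouse promoters of this length, with a median GC content of 52.4%, 32.7% held at least 1 GC box. Neither run held CACCTG, an E-box that Snail and Zeb factors bind and that 17.2% of promoters held on either strand, nor AACCGGTT, the letters of Grainyhead-like factors that 0.116% held. These are matches of letters in a window and were not tested as binding sites.

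The first question was how the desmosome genes differed between spheroids and monolayers when both were given palmitate. Of the 10 genes, 9 rose and 1 fell in 3D (edgeR's quasi-likelihood test, Benjamini-Hochberg adjusted p under 0.05), in a comparison that called 68.3% of all genes tested. Over all genes 34.5% were called higher and 33.9% lower, and removal of each library's trend over GC content and length turned this balance to 3802 genes higher and 5161 lower in place of 4335 and 4259. The median log2 fold change of the desmosome genes was 1.00, with a range from -1.38 to 1.63, against 0.01 over all genes tested. The genes that rose were Pkp1, Ppl, Dsc2, Jup, Evpl, Perp, Pkp3, Dsp and Dsg2, by 1.34-fold to 3.10-fold, and Pkp2 fell by 2.60-fold. For all 10 the 3 libraries of one group lay outside the range of the other, as they did for 69.4% of all genes. The summed level of the 10 genes was 935 to 951 CPM in 2D, 1864 to 1914 CPM in 3D without palmitate and 1638 to 1689 CPM in 3D with palmitate.

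**Figure D1:**
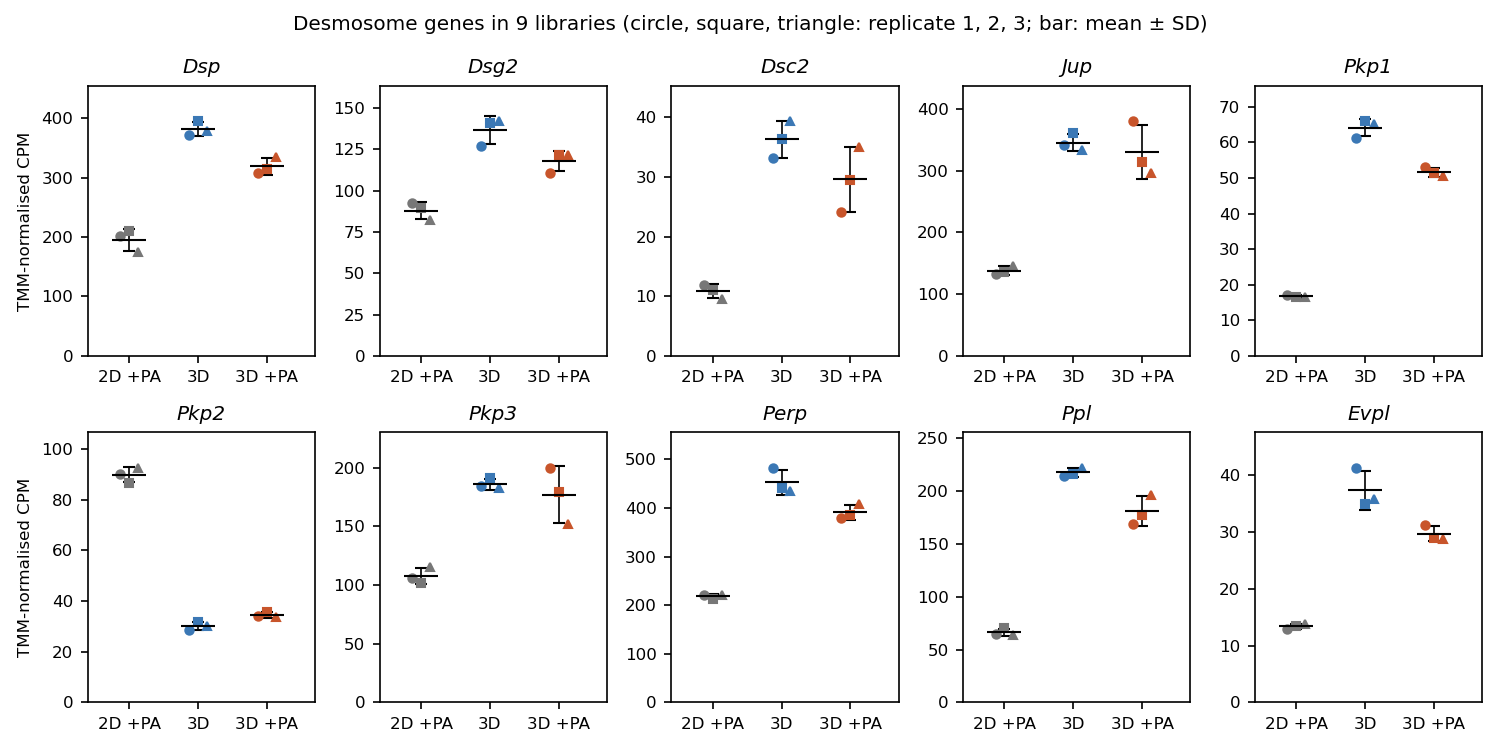
CPM after TMM scaling (y axis of each panel, starting at 0) of the 10 desmosome genes in 2D with palmitate, 3D without and 3D with palmitate (x axis). Circle, square and triangle are replicates 1, 2 and 3, and bars are the mean ± SD. The 2D libraries lie below all 6 libraries of the 3D groups in 9 panels and above them for Pkp2, and the 3 libraries of 3D with palmitate are widely spaced for Jup, Pkp3 and Dsc2.

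Both desmosomal cadherins among the 10 genes, Dsg2 and Dsc2, had higher RNA levels in 3D, though for Dsg2 this depended on the fit. Dsg2, the desmoglein of simple epithelia and heart, lies at chr18:20558074-20604521 (GRCm38, plus strand). It measured 92.6, 89.2 and 82.0 CPM in 2D with palmitate, 127, 141 and 142 CPM in 3D without palmitate and 111, 121 and 122 CPM in 3D with palmitate. The 2D libraries lay below all libraries of 3D, and replicate 1 was the lowest of its group in both 3D groups. Dsg2 was 1.34-fold higher in 3D than in 2D with palmitate (log2 fold change 0.42, SE 0.0714, edgeR adjusted p = 0.000105). With each library's trend over GC content and transcript length removed, an alternative chosen with earlier results known, the log2 fold change of Dsg2 was 0.00 and its adjusted p 0.977. The exons of Dsg2 are long, 8268 bases when merged, with a transcript GC content of 47.5%, and 330 of these bases overlap an antisense gene, Gm16090, that is not in the table. Dsc2, the widely expressed desmocollin, lies at chr18:20030633-20059554 on the minus strand. It measured 11.9, 11.0 and 9.54 CPM in 2D, 33.2, 36.4 and 39.3 CPM in 3D without palmitate and 24.1, 29.6 and 35.1 CPM in 3D with palmitate. Its 2D values did not overlap those of either 3D group, while the 3D groups overlapped each other. Dsc2 was 2.67-fold higher in 3D than in 2D with palmitate (log2 fold change 1.42, SE 0.131, edgeR adjusted p = 2.40e-07).

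Dsg2 made up a smaller share of the reads of these 2 cadherins in 3D. Its share of the Dsg2 and Dsc2 counts was 88.6%, 89.0% and 89.6% in 2D, 79.3%, 79.5% and 78.3% in 3D without palmitate and 82.1%, 80.4% and 77.6% in 3D with palmitate. The 2D values were above all others, and the 3D groups overlapped. Between 3D and 2D with palmitate the share differed by -9.02 percentage points (exact permutation over libraries, two-sided p = 0.1, which is the lowest value that 3 against 3 libraries allow, and 0.133 after Benjamini-Hochberg adjustment over 8 tests of shares). These are shares of reads, which also depend on the lengths of the 2 transcripts. The Wilson 95% interval of a share was widest in the smallest library, from 75.0% to 80.1%, and such intervals cover counting error only.

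Jup codes for plakoglobin, the armadillo protein that binds the tails of desmosomal cadherins and that is also found at adherens junctions. Jup lies at chr11:100368958-100397763 on the minus strand. It measured 133, 136 and 146 CPM in 2D with palmitate, 342, 361 and 334 CPM in 3D without palmitate and 380, 315 and 296 CPM in 3D with palmitate. All 6 libraries of the 3D groups lay above those of 2D, and the 3D libraries with palmitate spanned the whole range of those without. Jup was 2.39-fold higher in 3D than in 2D with palmitate (log2 fold change 1.26, SE 0.0849, edgeR adjusted p = 9.44e-09).

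The 3 plakophilins went in different directions. Plakophilins are armadillo proteins of the plaque that bring cadherins and desmoplakin together: Pkp1 is best known from stratified epithelia, Pkp2 from simple epithelia and heart muscle, and Pkp3 from most epithelia. Pkp1, at chr1:135871395-135919207 on the minus strand, measured 17.1, 16.5 and 16.7 CPM in 2D, 61.4, 66.0 and 65.1 CPM in 3D without palmitate and 53.0, 51.4 and 50.5 CPM in 3D with palmitate. The 3 groups did not overlap, and replicates lay close together. Pkp1 was 3.10-fold higher in 3D than in 2D with palmitate, the largest rise among the 10 genes (log2 fold change 1.63, SE 0.0683, edgeR adjusted p = 5.81e-11).

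Pkp2, at chr16:16213318-16272712 on the plus strand, was the desmosome gene that fell in 3D. It measured 90.2, 86.7 and 92.7 CPM in 2D, 28.6, 31.9 and 30.0 CPM in 3D without palmitate and 34.0, 35.8 and 33.5 CPM in 3D with palmitate. Every 3D library was far below every 2D library, and those with palmitate lay just above those without. Pkp2 was 2.60-fold lower in 3D than in 2D with palmitate (log2 fold change -1.38, SE 0.0672, edgeR adjusted p = 2.97e-10), and the log2 fold change lay between -1.41 and -1.36 in the 18 alternative analyses. Pkp3, at chr7:141078218-141090510 on the plus strand, measured 106, 102 and 115 CPM in 2D, 184, 191 and 182 CPM in 3D without palmitate and 200, 179 and 152 CPM in 3D with palmitate. The 2D libraries were below all others, and the 3D groups overlapped. Pkp3 was 1.65-fold higher in 3D than in 2D with palmitate (log2 fold change 0.73, SE 0.0861, edgeR adjusted p = 3.34e-06).

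The make-up of the plakophilin reads differed accordingly between 2D and 3D. Pkp2 took 42.3%, 42.3% and 41.3% of the Pkp1, Pkp2 and Pkp3 counts in 2D, 10.4%, 11.0% and 10.8% in 3D without palmitate and 11.9%, 13.4% and 14.2% in 3D with palmitate. Pkp1 took 8.03%, 8.03% and 7.43% in 2D, 22.4%, 22.8% and 23.5% in 3D without palmitate and 18.5%, 19.3% and 21.4% in 3D with palmitate. Pkp3 took the rest, on average 50.2% ± 0.920 in 2D, 66.3% ± 0.763 in 3D without and 67.1% ± 2.64 in 3D with palmitate (SD, n = 3). In 2D, Pkp2 reads were thus more frequent than Pkp1 reads in each library, and in the 3D groups Pkp1 reads were more frequent than Pkp2 reads in each library. Pkp1 has the longer exons (4669 against 2918 bases merged), and per kilobase the order of Pkp1 and Pkp2 in 3D with palmitate was the reverse, with Pkp2 above Pkp1. Between 3D and 2D with palmitate the shares differed by 11.9 percentage points for Pkp1, by -28.8 for Pkp2 and by 16.9 for Pkp3, with no overlap between the groups. Each had a two-sided exact permutation p of 0.1, the smallest possible here, and an adjusted p of 0.133.

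**Figure D2:**
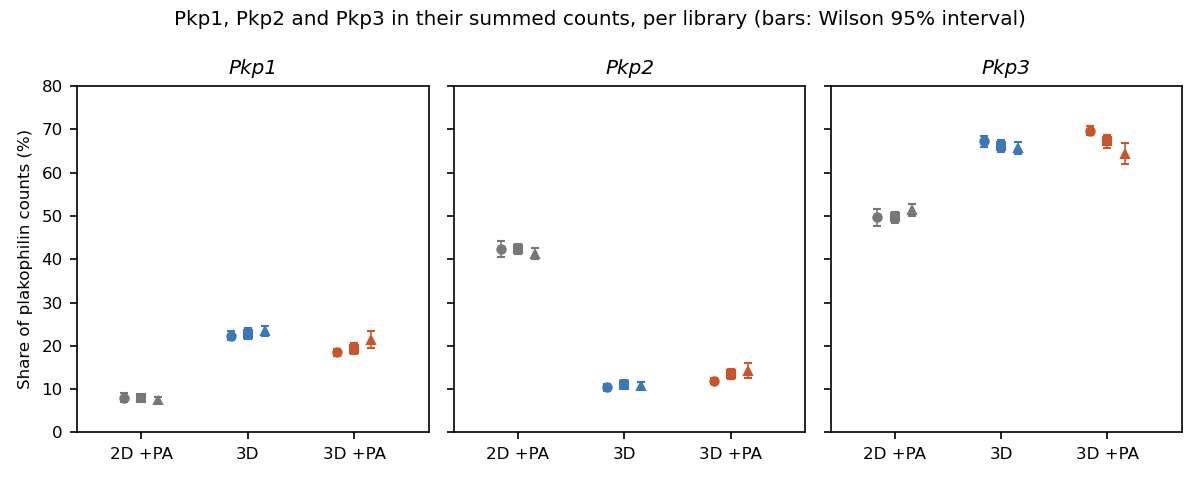
Share of the summed Pkp1, Pkp2 and Pkp3 counts (y axis, percent) that each gene took in each library of 2D with palmitate, 3D without and 3D with palmitate (x axis). Circle, square and triangle are replicates 1, 2 and 3, and bars are Wilson 95% intervals, which cover counting error only. The Pkp2 share is near 42.0% in 2D and at most 14.2% in 3D, and the shares of Pkp1 and Pkp3 are higher in 3D.

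The 3 plakins all rose in 3D. Dsp codes for desmoplakin, the plakin that ties the plaque to keratin filaments, and lies at chr13:38151294-38198577 on the plus strand. It measured 201, 210 and 175 CPM in 2D, 372, 395 and 378 CPM in 3D without palmitate and 307, 314 and 335 CPM in 3D with palmitate. The 3 groups did not overlap. Dsp was 1.63-fold higher in 3D than in 2D with palmitate (log2 fold change 0.71, SE 0.0724, edgeR adjusted p = 7.47e-07). Dsp had a log2 fold change of 0.24 and an adjusted p of 0.000194 once the trend over GC content and length was removed. The merged exons of Dsp, the longest of the 10 genes, span 9592 bases, of which 499 overlap Gm10129, a gene on the other strand that is not in the table.

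Ppl and Evpl code for periplakin and envoplakin, plakins that pair with each other and that in keratinocytes are built into the cornified envelope. Ppl, at chr16:5086291-5132421 on the minus strand, measured 64.8, 70.3 and 63.3 CPM in 2D, 214, 216 and 222 CPM in 3D without palmitate and 169, 177 and 196 CPM in 3D with palmitate. Evpl, at chr11:116220559-116238077 on the minus strand, measured 12.8, 13.4 and 13.9 CPM in 2D, 41.2, 34.9 and 35.8 CPM in 3D without palmitate and 31.2, 28.9 and 28.8 CPM in 3D with palmitate. For both genes 2D was lowest, 3D with palmitate intermediate and 3D without palmitate highest, with no overlap between groups. Ppl was 2.72-fold higher in 3D than in 2D with palmitate (log2 fold change 1.44, SE 0.0708, edgeR adjusted p = 3.20e-10). Evpl was 2.23-fold higher (log2 fold change 1.16, SE 0.0888, edgeR adjusted p = 3.65e-08).

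Perp, a small membrane protein with 4 spans that p63 induces and that desmosomes of stratified epithelia need, is coded at chr10:18845020-18857073 on the plus strand. It measured 221, 214 and 221 CPM in 2D, 483, 442 and 435 CPM in 3D without palmitate and 380, 386 and 409 CPM in 3D with palmitate. The 3 groups did not overlap, and replicate 1 stood above the other replicates in 3D without palmitate. Perp was 1.79-fold higher in 3D than in 2D with palmitate (log2 fold change 0.84, SE 0.0619, edgeR adjusted p = 2.36e-08).

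**Figure D3:**
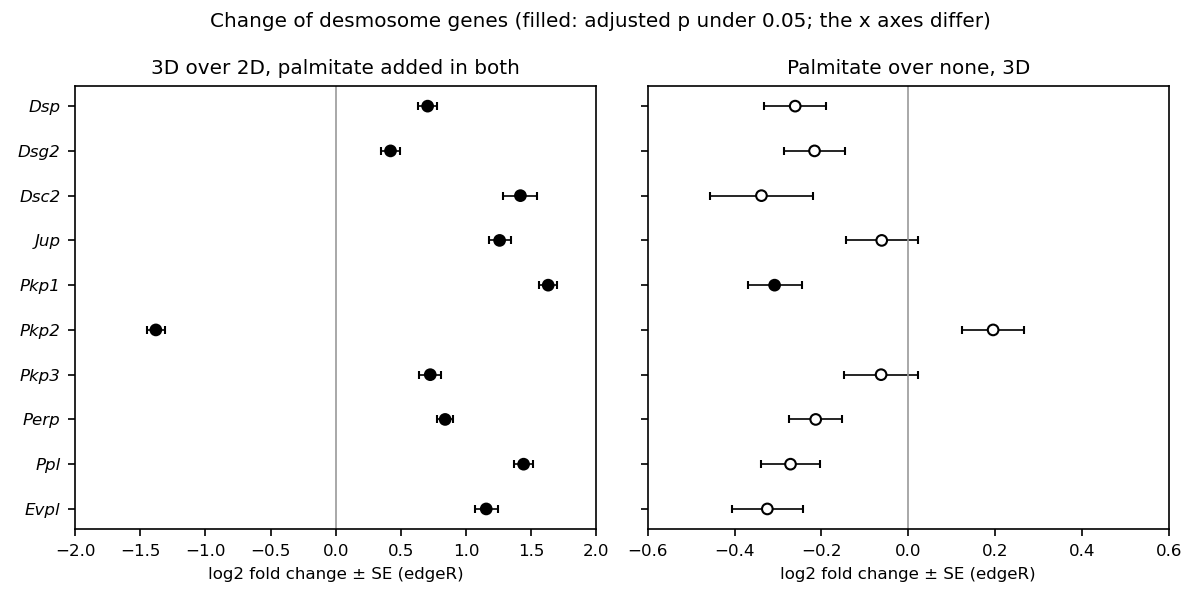
Log2 fold change ± SE (x axis, edgeR) of the 10 desmosome genes (y axis) for 3D over 2D with palmitate added in both (left) and for palmitate over none in 3D (right, on a narrower axis). Filled points passed an adjusted p of 0.05. All 10 points on the left are filled, from -1.38 for Pkp2 to 1.63 for Pkp1, and on the right Pkp1 alone is filled, at -0.31.

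The second question was whether palmitate changed these genes in spheroids. Only Pkp1 passed the test, with a lower level with palmitate, in a comparison that called 2.19% of all genes tested. Over all genes 1.38% were called higher and 0.811% lower. Scaling by library size alone turned that balance, with 106 genes called higher and 121 lower in place of 173 and 102. The log2 fold changes of the desmosome genes ran from -0.34 to 0.20 around a median of -0.24, and the median over all genes tested was 0.01. Of the 10 genes, 8 had an unadjusted p under 0.05 in edgeR's test, as did 17.3% of all genes tested. For 7 genes the groups did not overlap, with 6 lower with palmitate (Dsp, Dsg2, Pkp1, Perp, Ppl and Evpl) and Pkp2 higher, while 18.6% of all genes did not overlap. Both 3D groups lay on the same side of the 2D group for every desmosome gene.

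Pkp1 was 1.24-fold lower with palmitate than without (51.6 ± 1.23 against 64.1 ± 2.44 CPM, SD, n = 3; log2 fold change -0.31, SE 0.0623, edgeR adjusted p = 0.0226). The log2 fold change stayed between -0.34 and -0.29 in 18 alternative analyses and was called in 12 of them. The call was lost with the 2 compared groups alone (adjusted p = 0.0678), with the replicate number as a block (0.0713), with the share of the ribosomal RNA precursor Rn45s as a covariate (0.150), and without replicate 2 or replicate 3 of 3D without palmitate or replicate 2 of 3D with palmitate (0.103 to 0.118). Its share of the plakophilin counts differed by -3.16 percentage points with palmitate and that of Pkp2 by 2.40 points, both without overlap and with a two-sided exact permutation p of 0.1 (adjusted p = 0.133). The Pkp3 share differed by 0.757 points (p = 0.7) and the Dsg2 share of the cadherin counts by 1.02 points (p = 0.5), both with overlap and by the same exact permutation test.

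Among the plakins, Evpl had a log2 fold change with palmitate of -0.32 (SE 0.0823, edgeR adjusted p = 0.0563), Ppl of -0.27 (SE 0.0681, adjusted p = 0.0557) and Dsp of -0.26 (SE 0.0717, adjusted p = 0.0775). None of these 3 passed, though their groups did not overlap. Perp had a log2 fold change of -0.21 (SE 0.0612, adjusted p = 0.0894). Of the cadherins, Dsc2 had a log2 fold change of -0.34 (SE 0.118, adjusted p = 0.156) and Dsg2 of -0.22 (SE 0.0706, adjusted p = 0.130). Pkp2 was the desmosome gene with a positive log2 fold change, 0.20 (SE 0.0706, adjusted p = 0.169). Jup and Pkp3 each had a log2 fold change of -0.06 (SE 0.0829 and 0.0850, adjusted p = 0.766 for both).

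Which desmosome genes passed depended on the libraries used. Without replicate 3 of 3D with palmitate, which had the fewest counts, 7 were called, all lower with palmitate: Pkp1, Perp, Evpl, Dsp, Ppl, Dsc2 and Dsg2. The same fit called 14.9% of all genes tested. Without replicate 2 of 3D with palmitate, or replicate 2 or 3 of 3D without, 0 were called, and without replicate 3 of 2D Dsp passed beside Pkp1. Over all genes 71 to 1901 were called as single libraries were left out. These counts alone are therefore no result about the desmosome genes. The replicates of 3D with palmitate were widely spread for Jup, with a transcript GC content of 58.8%, and Pkp3, with 60.3%, both highest in replicate 1 and lowest in replicate 3, and for Dsc2, with 42.5%, which was lowest in replicate 1 and highest in replicate 3. Evpl, with the highest GC content of the 10 genes at 61.2%, was less spread, at 31.2, 28.9 and 28.8 CPM. After removal of the trend over GC content and length, the same 7 genes passed with palmitate, with log2 fold changes that stayed negative, in a fit that called 7.67% of all genes tested. The cause of the spread between these libraries was not tested.

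Per kilobase of exon, Perp was the most abundant and Evpl the least abundant desmosome gene in all groups. Perp had 112 ± 2.07 CPM per kilobase of exon (RPKM) in 2D, 232 ± 13.3 in 3D without and 201 ± 8.02 in 3D with palmitate, and Evpl had 2.09 ± 0.0813, 5.84 ± 0.538 and 4.65 ± 0.215 RPKM (SD, n = 3). Jup and Pkp3 followed Perp in every group. In 2D with palmitate the order then ran from Pkp2, with 30.8 ± 1.03 RPKM, through Dsp, Dsg2, Ppl, Pkp1 and Dsc2. In 3D Dsp and Ppl came next, with 39.8 ± 1.24 and 34.9 ± 0.641 RPKM without palmitate, followed by Dsg2, and Pkp2 dropped to place 8 without palmitate (10.3 ± 0.567 RPKM) and place 7 with it (11.8 ± 0.403 RPKM). Pkp1 had 3.59 ± 0.0719 RPKM in 2D, 13.7 ± 0.523 in 3D without and 11.1 ± 0.262 in 3D with palmitate. Neighbours in the order overlapped in 2D for Dsg2 and Ppl, and for Dsc2 and Evpl. In both 3D groups no neighbours overlapped. Levels per kilobase rest on the merged exon length, which counts exons that these cells may not use.

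**Figure D4:**
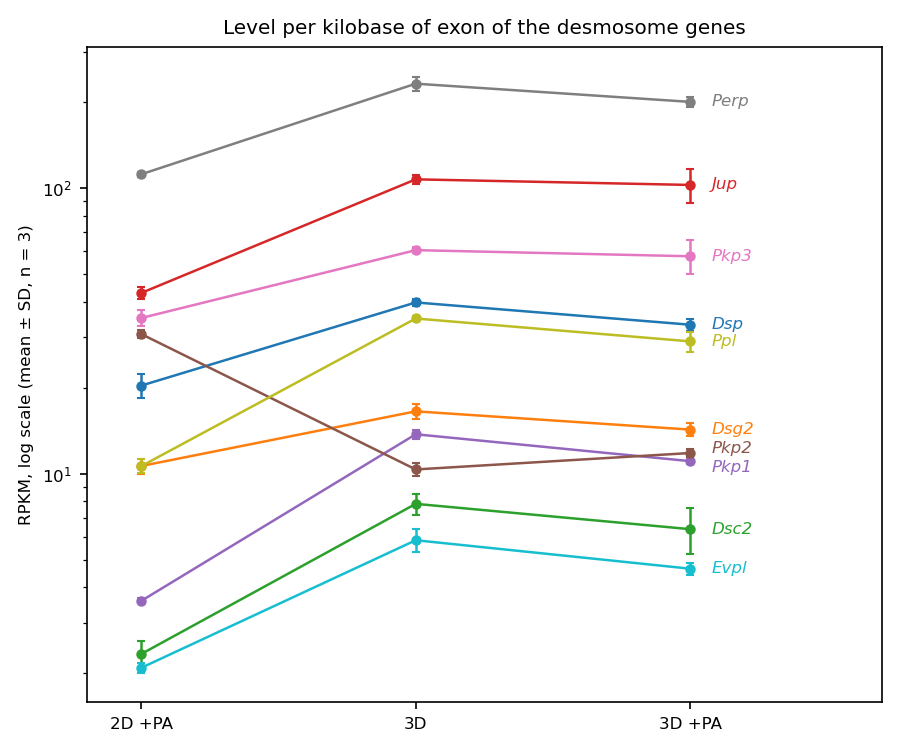
RPKM (y axis, log scale) of the 10 desmosome genes in 2D with palmitate, 3D without and 3D with palmitate (x axis), as mean ± SD of 3 libraries, with lines that only join the points of 1 gene. Perp leads in every group at 112 to 232 RPKM, and the line of Pkp2 crosses those of Dsp, Ppl, Dsg2 and Pkp1 between 2D and 3D and lies above Pkp1 again in 3D with palmitate.

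Other genes of the junction and its filaments were taken from 7 lists of 78 genes, of which 77 were in the table and 51 were tested. In 3D against 2D with palmitate 26 were called higher and 12 lower, beside 34.5% and 33.9% of all genes tested. With palmitate in 3D 0 were called higher and 4 lower, beside 1.38% and 0.811% of all genes. The counts of each list below are to be read beside these shares too. A minimum of 10 counts in every library left 40 of them, with 21 higher and 10 lower in 3D, in a fit that called 7841 of 11094 genes. Dsg3, Pof1b, Krt15, Csta1 and Ehf were not among these 40, nor were Dsg1c and Trp63, named after their values were seen. All of these had at most 21 counts in any 2D library. All but Ehf entered the test through the 3D groups in which they were high. Ehf, with 7, 21 and 15 counts in 2D, had enough reads in each group to be tested, though few in 2D. Ratios of these genes to 2D are therefore given as descriptions with no p. Their calls are part of the 26 and of the counts of each list below, and are not read as results. Of 12 other desmosomal genes 7 were tested, with 3 called higher and 3 lower in 3D. The 3 called higher were Dsg3, Pof1b and Dsg1c, which all entered the test through the 3D groups. The median log2 fold change of the 7 was -0.03. The 5 not tested (Dsg1a, Dsg1b, Dsg4, Dsc1 and Dsc3) had at most 4 counts in any library. Dsg3, a desmoglein of stratified epithelia, had 3, 11 and 3 counts in the 2D libraries, 642, 518 and 679 in 3D without palmitate and 454, 236 and 153 in 3D with palmitate. It was nearly silent in 2D and present in every 3D library, at 33.5 ± 3.25 CPM without and 19.4 ± 3.58 CPM with palmitate (SD, n = 3). Pooled over libraries, Dsg3 was 69.6-fold higher in 3D than in 2D with palmitate (95% counting interval 43.2 to 120.0).

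Pof1b, an actin-binding protein of epithelial junctions, had 1, 3 and 1 counts in 2D and was 33.7-fold higher in 3D with palmitate (95% counting interval 14.0 to 105.6). Cdsn, which codes for corneodesmosin of the cornified layer, fell by 1.76 on the log2 scale (SE 0.139, adjusted p = 5.00e-08). Pkp4, an armadillo protein related to p120-catenin, fell by 0.72 (SE 0.0678, adjusted p = 2.97e-07). In 3D with palmitate Cdsn was down to 2.98 ± 0.241 CPM from 9.85 ± 0.913 CPM in 2D, while Pkp4 was at 80.8 ± 1.88 and 134 ± 3.83 CPM (SD, n = 3).

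Of the 4 further plakins, 3 were called higher in 3D. Plec, which codes for plectin, had a log2 fold change of 0.84 (SE 0.0965, adjusted p = 2.50e-06). Macf1 and Dst, large plakins that also bind actin and microtubules, had log2 fold changes of 0.30 (SE 0.0864, adjusted p = 0.00684) and 0.26 (SE 0.103, adjusted p = 0.0381). After removal of that trend over GC content and length both turned to negative values, -0.19 and -0.22, and both were called lower in that fit. The groups overlapped for Dst. In other fits Dst was not called: with the 2 compared groups alone (adjusted p = 0.0588), with the replicate number as a block (0.0575), and without replicate 1 (0.0547) or 3 (0.185) of 2D, replicate 2 of 3D without palmitate (0.0526) or replicate 3 of 3D with palmitate (0.156).

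Of 13 keratins, the proteins that desmosomes anchor, 9 were tested, with 4 higher and 2 lower in 3D. Krt8 and Krt19, keratins of simple epithelia, rose by 0.59 (SE 0.0584, adjusted p = 5.07e-07) and 0.45 (SE 0.0620, adjusted p = 1.45e-05) on the log2 scale, and Krt7 fell by 0.51 (SE 0.0694, adjusted p = 1.27e-05). Krt15, a keratin of basal cells, had 0, 2 and 0 counts in 2D and 156 in total in 3D with palmitate, which is 109-fold higher with a 95% counting interval of 29.8 to 912.

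Of 12 genes of the adherens junction, the actin-bound junction beside the desmosome, 11 were tested, with 5 higher and 4 lower in 3D. Ctnnb1, which codes for beta-catenin, was among the higher genes with a log2 fold change of 0.94 (SE 0.0572, adjusted p = 3.28e-09), as were Vcl for vinculin with 0.63 (SE 0.0654, adjusted p = 8.95e-07) and Ctnnd1 for p120-catenin with 0.62 (SE 0.0629, adjusted p = 6.52e-07). Nectin2, listed as Pvrl2, fell by 1.38 (SE 0.104, adjusted p = 3.19e-08). Cdh1, the E-cadherin of this junction, which was chosen after its values were seen, had a log2 fold change of 0.12 (SE 0.0550, adjusted p = 0.0589), which turned to -0.09 once the trend over GC content and length was removed.

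Of 13 transcription and splicing factors of epithelia, all were tested, with 8 higher and 2 lower in 3D and a median log2 fold change of 0.67. Ovol1 had a log2 fold change of 1.67 (SE 0.105, adjusted p = 4.32e-09) and Klf5 of 1.14 (SE 0.0737, adjusted p = 5.86e-09). Ehf, an ETS factor of epithelia, was 11.7-fold higher in pooled counts (95% counting interval 8.50 to 16.4). It measured 6.44, 7.52 and 12.9 CPM in 3D with palmitate, a spread between libraries that the interval does not cover. Of 6 factors of epithelial-mesenchymal transition, which repress epithelial genes, 4 were tested: Snai1 was called higher, at 0.43 (SE 0.127, adjusted p = 0.00760), and Zeb2 lower, at -0.43 (SE 0.0900, adjusted p = 0.000634). The call of Snai1 was lost without replicate 1 of 3D with palmitate (log2 fold change 0.20, adjusted p = 0.108), which measured 28.8 CPM beside 20.9 and 19.4 CPM in the other replicates. Of 18 genes of the cornified envelope, 17 were in the table and 3 were tested. Csta1, a cysteine protease inhibitor, was 17.5-fold higher in pooled counts (interval 8.87 to 39.2) and Sbsn, which codes for suprabasin, rose by 0.97 on the log2 scale (SE 0.127, edgeR adjusted p = 9.02e-06), while the 14 genes of this list with too few reads had at most 9 counts in any library.

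With palmitate in 3D the 4 list genes called were all lower, and 3 of them are described here. Dsg3 had a log2 fold change of -0.84 (SE 0.122, edgeR adjusted p = 0.00243), and its 3 libraries with palmitate, at 16.7, 17.9 and 23.4 CPM, lay below those without, at 30.3, 33.5 and 36.8 CPM. Krt14, a keratin of basal cells, had a log2 fold change of -0.52 (SE 0.0821, adjusted p = 0.00517) and Esrp1, a splicing factor of epithelia, of -0.41 (SE 0.0690, adjusted p = 0.00705). The Krt14 call held in every alternative, while that of Dsg3 was lost with the Rn45s share as a covariate (adjusted p = 0.0545) and that of Esrp1 without replicate 2 of 3D without palmitate (0.0521). No gene of the plakin, adherens junction, cornified envelope or epithelial-mesenchymal transition lists passed edgeR's test with palmitate, where 0 of 4, 2 of 11, 2 of 3 and 2 of 4 of those tested had an unadjusted p under 0.05, beside the 17.3% of all genes. In the remaining lists 8 of 13 epithelial factors, 3 of 9 keratins and 2 of 7 other desmosomal genes did. The epithelial factors, 3 of 13 with a positive value, had a median log2 fold change of -0.23, beside -0.24 for the desmosome genes.

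**Figure D5:**
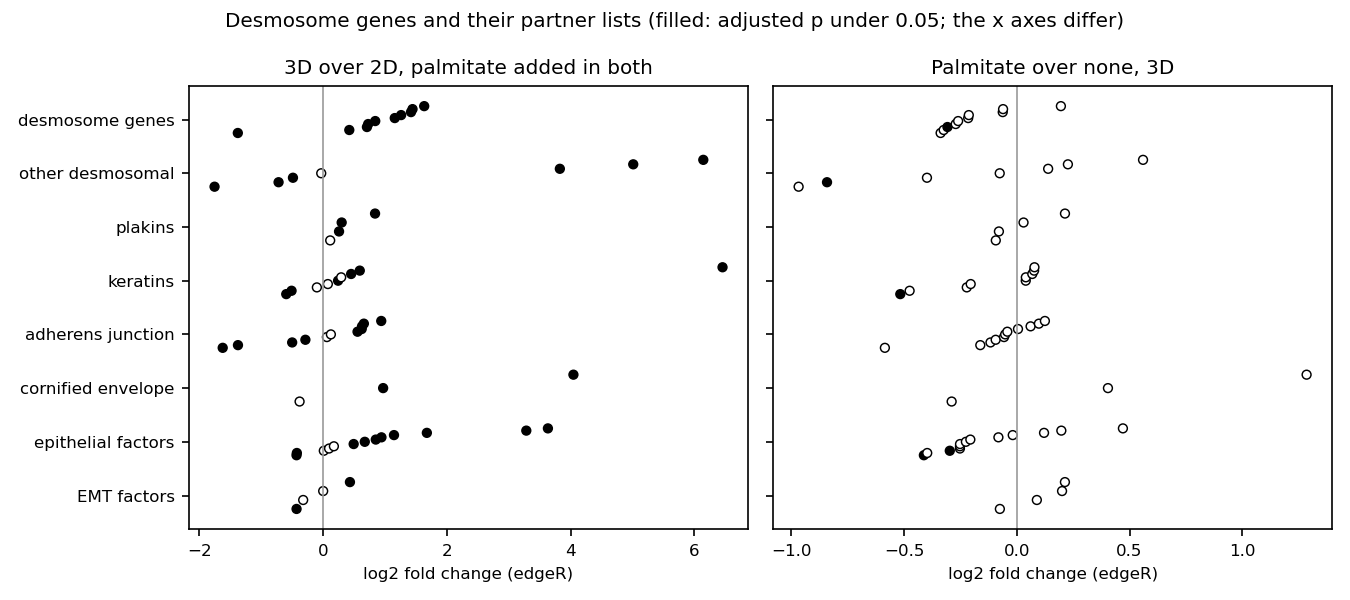
Log2 fold change (x axis, edgeR) of each tested gene in the desmosome genes and the 7 other lists (rows) for 3D over 2D with palmitate added in both (left) and for palmitate over none in 3D (right, on a narrower axis). Filled points passed an adjusted p of 0.05. On the left Krt15 and Dsg3, which entered the test through the 3D groups, lie farthest to the right, above 6 on the log2 scale. On the right the filled points, Pkp1, Dsg3, Krt14 and Esrp1 among them, all lie below 0.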

How the data were processed

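Polyadenylated RNA was sequenced in 9 libraries. The authors deposited raw counts per gene: per the study's methods and the labels, 50 bp single-end reads of a stranded library were trimmed with fastq-mcf, checked with FastQC 0.11.9, aligned to GRCm38 with HISAT2 2.1.0 and counted with HTSeq-count. The annotation release and the strand setting of the counting are not given in the sources used here, so that reads of overlapping genes could be shared or lost. All columns of the table were used, and groups and replicate numbers were taken from the labels.

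From these counts, edgeR 4.0.16 in R 4.3.3 was used for the filter on low counts (filterByExpr), the TMM scaling and the quasi-likelihood fit, in which all 9 libraries entered and condition was the single term. The p-values were adjusted by the Benjamini-Hochberg method over the 12575 genes tested, and an adjusted p under 0.05 was called. Standard errors were taken as the absolute log2 fold change over the root of F. CPM values include the TMM scaling, and RPKM values divide them by the merged exon length in kilobases, from GENCODE gene models of GRCm38 (23376 genes of the table matched by symbol, 668 by a synonym and 377 not). Promoters are those of RefSeq, of which 2 members had one in the table. Shares were compared by two-sided exact permutation tests over libraries (SciPy 1.17.1), which cannot give a p below 0.1 with 3 against 3, and single shares and pooled ratios carry 95% intervals that cover counting error only. Identical libraries were looked for among the replicates of each group by chi-square over the genes that reached 20 counts in both libraries together, and none were found. Libraries of different groups were not compared in this way. The procedure was tested on simulated counts.

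The members and the lists were chosen with earlier results of these data known. Named are all 10 members, and in each list up to 4 called genes per comparison with the smallest p, of which 1 gene is not reported here. The alternatives tried were DESeq2 1.42.0, RLE factors or library size for the scaling, no filter or a minimum of 10 counts per library, a fit to the 2 compared groups, a block for the replicate number, the Rn45s share as a covariate, and leaving out single libraries. A correction of each library for GC content and length, by splines with 4 degrees of freedom, was added with earlier results known.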

Additional observations from a re-analysis of the deposited data

How the results depend on the processing

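For 3D against 2D with palmitate, 10 desmosome genes were called in each alternative but the removal of the GC and length trend, which gave 9, without Dsg2. With each library left out in turn the number stayed at 10, and the share differences lay between 11.1 and 12.5 points for Pkp1, -29.3 and -28.1 for Pkp2, 15.6 and 18.3 for Pkp3 and -10.0 and -7.80 for Dsg2.

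For palmitate in 3D, the number of desmosome genes called was 1 and went to 2 with scaling by library size, 6 without a filter, 2 with at least 10 counts in every library, 0 with the 2 compared groups alone, 5 with DESeq2, 0 with the Rn45s share as a covariate, 7 with the GC and length trend removed, and 0 to 7 with a library left out. The number called over all genes changed between these fits as well, so that these counts alone are no result about the desmosome genes. That number is given below or, for scaling by library size, above. It is not given for the minimum of 10 counts and for DESeq2. Of the list genes 4 were called, 2 with the Rn45s covariate, 11 with the GC and length trend removed and 2 to 7 with a library left out. Of all genes 275 were called (2.19% of those tested), 617 without a filter, 77 with the 2 groups alone and 44 with the Rn45s covariate. With the GC and length trend removed 959 were called (7.67%). With a library left out 71 to 1901 were called, the highest number (14.9%) without replicate 3 of 3D with palmitate. With a library left out, the log2 fold change of Jup lay between -0.18 and 0.0097 and that of Pkp3 between -0.16 and 0.030, both highest without that library. The Pkp1 and Pkp2 shares lay between -4.00 and -2.53 and between 1.89 and 3.06 points with a library left out. The Pkp3 share lay between -0.53 and 2.11 and the Dsg2 share between -0.014 and 2.24 points, each at its lowest without replicate 1 of 3D with palmitate. The causes were not tested.

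With the replicate number as a block, 0 desmosome genes and 111 of all genes were called with palmitate, and 10 desmosome genes in 3D against 2D. Over the 9 pairs that share a replicate number, deviations from the group mean correlated at -0.24 to 0.15. Over 18 other pairs the correlations ran from -0.17 to 0.28. These ranges overlap, and deviations within a group of 3 libraries depend on each other. Whether the numbers pair the libraries can therefore not be told from these values. The smallest library, with 6595514 counts, limits the genes with few reads.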

Other observations

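Among the desmogleins, Dsg3 went from a trace to a sizeable part of the reads in 3D, a measure chosen after its values were seen and therefore given with no test. Dsg3 took 0.267%, 0.393% and 0.163% of the summed Dsg2 and Dsg3 counts in 2D with palmitate. In 3D it took 19.3%, 19.2% and 20.6% without palmitate and 13.1%, 12.9% and 16.2% with palmitate. The 2D libraries rest on 3, 11 and 3 counts of Dsg3. The 3 groups did not overlap, and the 95% Wilson interval of the smallest library with palmitate ran from 13.9% to 18.6%, which covers counting error only. Dsg1c, the other desmoglein that was tested, had at most 12 counts in any library.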
